A study of Mus musculus with 4 samples.

Results

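The 6 genes Ms4a4a, Ms4a4d, Ms4a6b, Ms4a6c, Ms4a6d and Ms4a7 belong to the membrane-spanning Ms4a family and were followed across cultured mouse osteoblasts labelled as carrying a conditional Runx3 deletion or as wild type. They are 6 of 20 Ms4a genes with an array row of their own, and 6 of 22180 named genes in all. They were chosen because, in these arrays, Ms4a4d was higher where the other 5 were lower, so their differences between the groups are given as descriptions with no test. Each of them had exactly 1 row with a single gene symbol, and no row shared with another gene.

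Ms4a proteins cross the cell membrane several times and often sit beside immune receptors, whose signals they tune. The founding members are Ms4a1, which encodes CD20 of B cells, and Ms4a2, which encodes the beta chain of the high-affinity IgE receptor of mast cells. Several members of the Ms4a4, Ms4a6 and Ms4a7 branches are known from macrophages. The genes lie side by side in 1 cluster, on chromosome 19 in the mouse. Runx3 is a Runt-family transcription factor.

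Total RNA was taken from primary osteoblast cultures grown from newborn mouse calvaria and kept for 21 days in medium with ascorbate and glycerol phosphate. The 2 groups were labelled Runx3f/f/Col1a1-cre and wild type (WT), with 2 arrays each, called biological replicates 1 and 2. In the first, Cre is driven by Col1a1, a gene of cells that make type I collagen, and acts on floxed Runx3 alleles. The labels do not say whether the wild-type mice carried floxed alleles or Cre, nor whether a culture pooled several pups, and p-values measure only the spread between these arrays. RNA came from the whole culture, so any cell that persisted beside the osteoblasts contributed to it.

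Runx3 itself read 7.94 and 8.06 on the arrays labelled Runx3f/f/Col1a1-cre and 7.45 and 7.87 in wild type, on the deposited scale, which is taken as log2. Its level was thus no lower in the mutant-labelled group (difference 0.34, SE 0.20, limma adjusted p = 1). The deleted exons are not given in the labels, so this row may not check the deletion, and the groups are called mutant-labelled and wild type below. Xist, the noncoding RNA that silences an X chromosome, differed by -1.28 and -1.42 within replicates 1 and 2, and the Y-linked gene Eif2s3y by 2.66 and 1.90; the sex of the pups and the genotype cannot be told apart here. The median tested gene read 7.53 in replicate 1 and 7.81 in replicate 2, in both groups alike. Within a replicate number the mutant-labelled and wild-type arrays held exactly equal values (no tolerance) for 35.8% and 50.2% of the 17841 genes tested, in replicates 1 and 2. The labels do not say what arrays of a replicate number share, and how the equal values arose is not known here. The differences of the 6 Ms4a genes are also given within each number. One tag in the labels calls the tissue myoblast. Col1a1, the main bone collagen, read 13.5 to 13.6 on the 4 arrays. The muscle regulator Myod1 read 5.45 and 6.42 in both groups alike, above the background floor of 4.71 defined below. Among 7 muscle precursor genes, Des read 7.59 to 8.24 and Acta1 7.02 to 8.06, while Myh3 read 3.82 and 4.27. The 6 tested ones had a median difference of 0, which does not say whether muscle cells were present.

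The promoter windows of the members are shown first because neighbouring family genes differed in opposite directions. They run from 250 bases before to 50 after an annotated start site, come from RefSeq on build GRCm38.p6 and are written 5′ to 3′ on the strand of the gene. Of the 6 genes 5 had a window; Ms4a6d had none. Ms4a7 had 2, of which the one at the upstream start site is printed. Capitals mark a PU box in Ms4a7, and in Ms4a6b and Ms4a6c the longest run that both share. The windows are chr19:11536544-11536843 (plus strand), chr19:11375238-11375537 (plus), chr19:11518309-11518608 (plus), chr19:11469118-11469417 (plus) and chr19:11336097-11336396 (minus).
Ms4a4d: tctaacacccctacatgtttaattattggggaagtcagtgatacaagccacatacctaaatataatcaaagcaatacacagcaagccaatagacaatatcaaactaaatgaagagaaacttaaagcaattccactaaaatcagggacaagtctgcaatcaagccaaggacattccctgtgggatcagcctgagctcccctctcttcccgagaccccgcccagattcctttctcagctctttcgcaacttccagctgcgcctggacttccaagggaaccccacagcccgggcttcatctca
Ms4a4a: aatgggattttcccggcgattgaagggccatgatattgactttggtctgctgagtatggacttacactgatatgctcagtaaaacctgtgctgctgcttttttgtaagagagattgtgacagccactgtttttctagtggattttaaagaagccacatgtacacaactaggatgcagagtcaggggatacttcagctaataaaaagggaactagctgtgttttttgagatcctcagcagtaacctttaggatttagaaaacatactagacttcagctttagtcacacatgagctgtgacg
Ms4a6b: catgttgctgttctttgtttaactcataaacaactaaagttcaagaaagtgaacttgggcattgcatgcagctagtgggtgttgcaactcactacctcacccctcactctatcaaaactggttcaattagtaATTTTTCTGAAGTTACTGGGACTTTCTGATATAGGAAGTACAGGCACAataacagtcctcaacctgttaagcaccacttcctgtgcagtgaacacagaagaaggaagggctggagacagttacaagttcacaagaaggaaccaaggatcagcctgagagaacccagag
Ms4a6c: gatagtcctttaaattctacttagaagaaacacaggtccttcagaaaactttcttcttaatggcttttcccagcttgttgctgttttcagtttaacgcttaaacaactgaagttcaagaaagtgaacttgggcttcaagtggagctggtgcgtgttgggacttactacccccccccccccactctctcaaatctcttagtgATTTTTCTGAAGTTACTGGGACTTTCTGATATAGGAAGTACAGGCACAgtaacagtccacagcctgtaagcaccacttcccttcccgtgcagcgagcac
Ms4a7: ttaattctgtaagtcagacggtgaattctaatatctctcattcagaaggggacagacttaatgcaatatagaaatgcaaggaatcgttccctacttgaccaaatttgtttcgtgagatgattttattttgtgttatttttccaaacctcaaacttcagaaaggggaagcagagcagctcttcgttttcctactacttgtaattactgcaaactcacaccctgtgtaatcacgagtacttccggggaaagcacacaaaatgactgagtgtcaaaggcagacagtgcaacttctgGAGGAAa

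The windows of Ms4a6b and Ms4a6c were alike, with 85.3% identical bases over the 225 aligned without gaps and a shared run of 48 bases. That run starts 118 bases before the start site of Ms4a6b and 49 before that of Ms4a6c. The other 9 pairs of windows had 48.7 to 60.9% identity, and their longest shared runs were 7 to 13 bases. The window of Ms4a4d was no exception, with 48.7 to 59.7% identity to the others. Of the motifs searched on both strands, the PU box GAGGAA, bound by the myeloid factor PU.1, occurred once, 43 bases after the start of Ms4a7. This motif is present in 28.3% of the 32851 promoter windows of the table. The Runx motifs TGTGGT and TGCGGT, of which either occurs in 22.4% of all windows, were in 0 of the 6 member windows. The AP-1 motif TGANTCA (7.81% of all windows) was found in the second window of Ms4a7, and the TATA box TATAAA (13.6%) in none of the 6. A missing match says only that these letters are not in these windows.

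Ms4a4d was the member that was higher on the mutant-labelled arrays. Its log2 level was 8.67 and 8.72 there, against 6.07 and 6.21 in wild type (8.69 ± 0.04 against 6.14 ± 0.10, SD, n = 2 arrays per group). All 4 arrays lay above the background floor of 4.71, a level that 90% of olfactory and vomeronasal receptor rows do not reach, and the groups were separated by more than 2 log2 units. The difference was 2.60 within replicate 1 and 2.50 within replicate 2, which is 5.86-fold on average. Of the 17841 genes tested, 4 had a larger positive difference. Replicates of 1 group differed by 0.05 and 0.14 in this gene.

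Ms4a7, a gene of tissue macrophages, had the largest difference among the 5 lower members. It read 5.64 and 5.98 on the mutant-labelled arrays and 8.58 and 8.80 in wild type, so the groups did not overlap. The difference was -2.94 and -2.82 within the replicates, or 7.36-fold lower on average. Among all tested genes, 6 had a larger negative difference.

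Ms4a4a encodes a surface protein of macrophages that, in humans and mice, associates with the fungal receptor dectin-1. Its levels were 5.00 and 5.32 on the mutant-labelled arrays against 7.08 and 7.25 in wild type. The difference was -2.08 and -1.94 within the replicates (4.03-fold lower), and the mutant-labelled values lay close to the floor. Ms4a4a and Ms4a4d belong to the same Ms4a4 branch and had opposite signs in both replicates.

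The Ms4a6 branch contributed 3 genes, each lower in both replicates. Ms4a6c read 5.45 and 6.08 on the mutant-labelled arrays and 8.04 and 7.99 in wild type, a difference of -2.58 and -1.92 within the replicates (4.76-fold lower). Ms4a6d, whose protein pairs with the complement receptor Vsig4 in mouse macrophages, read 5.27 and 6.17 against 7.62 and 9.0. That is -2.35 and -2.83 within the replicates, or 6.02-fold lower. Ms4a6b was the dimmest member, at 3.58 and 5.08 against 5.35 and 6.81, with -1.77 and -1.73 within the replicates. Its mutant-labelled value of replicate 1 lay below the floor, and its wild-type value of replicate 1 was close to its mutant-labelled value of replicate 2. Taken on each mutant-labelled array alone, the 90th percentile of receptor rows was 4.50 in replicate 1 and 5.08 in replicate 2. The mutant-labelled value of Ms4a6b in replicate 2 thus lay at the background of its own array, which limits that difference too.

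The members of this branch also differed in how far replicate 2 stood above replicate 1. In Ms4a6b the offset was 1.46 in wild type and 1.5 in the mutant-labelled group, and in Ms4a6d it was 1.38 and 0.90. Ms4a6c did not share it, at -0.04 in wild type and 0.62 in the mutant-labelled group. Ms4a4a, Ms4a4d and Ms4a7 had offsets from 0.05 to 0.33. The pooled differences of Ms4a6b and Ms4a6d depended on single arrays: with 1 array left out, Ms4a6b ran from -2.50 (without mutant-labelled replicate 2) to -1.0 (without mutant-labelled replicate 1). For Ms4a6d the range was -3.28 (without wild-type replicate 1) to -1.90 (without wild-type replicate 2). With values below the floor raised to it, Ms4a6b differed by -1.19. Ms4a6b, Ms4a6c and Ms4a6d are close relatives, and whether their array probes read each apart from the others was not tested, so their separate values are uncertain to that extent. Some of their mutant-labelled values also recurred exactly in unrelated genes on the same array. For Ms4a6c these were 5.45 in replicate 1, which Myod1 also read, and 6.08 in replicate 2, the median of all rows there. The 5.27 of Ms4a6d in replicate 1 and the 5.08 of Ms4a6b in replicate 2 recurred likewise. Whether these levels are specific to the genes was not tested, so folds built on them are uncertain.

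**Figure D1:**
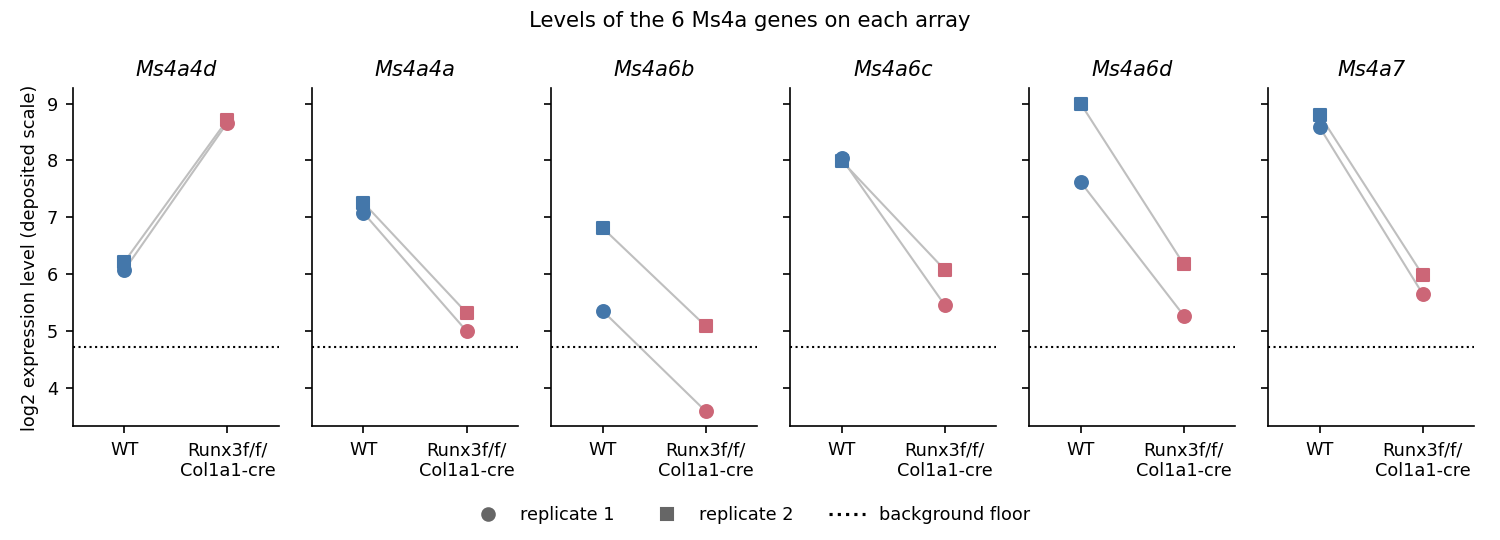
Log2 expression level (deposited scale, y axis) of each of the 6 Ms4a genes on the wild-type and Runx3f/f/Col1a1-cre arrays; circles are replicate 1, squares replicate 2, grey lines join arrays of a replicate number and the dotted line is the background floor at 4.71. Ms4a4d is higher on both mutant-labelled arrays and the other 5 genes are lower, and the mutant-labelled value of Ms4a6b in replicate 1 lies below the floor.

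Of the 6 genes, 5 were at least 1.5-fold lower within both replicates and 1 was at least 1.5-fold higher. In the background, 1.15% of all tested genes were that much lower in both replicates and 1.47% that much higher. At a 2-fold rule the 5 and the 1 were still counted, against 0.572% and 0.476% of all genes, but Ms4a6b only through its value below the floor. With that value raised to the floor its difference in replicate 1 was -0.65, and 4 genes were 2-fold lower. In all 6 the groups did not overlap over the 4 arrays, as was the case for 9.25% of tested genes that were lower and 7.66% that were higher. Since the genes were chosen on this contrast, nothing is read from these counts. The mean difference of the 5 lower members was -2.34 within replicate 1 and -2.25 within replicate 2, and Ms4a4d stood above it by 4.94 and 4.75 log2 units. With single arrays left out this gap ran from 4.50 to 5.19. In these bulk cultures, fewer cells of a type and less RNA per cell cannot be told apart.

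**Figure D2:**
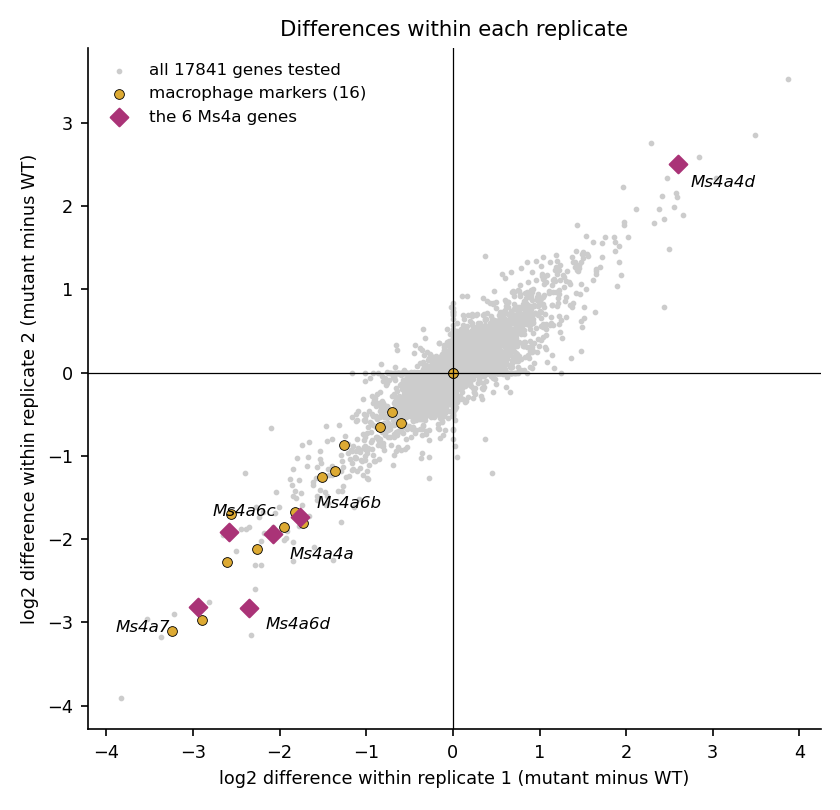
Log2 difference, mutant-labelled minus wild type, within replicate 1 (x axis) and within replicate 2 (y axis) for all 17841 genes tested (grey), 16 macrophage markers (yellow circles) and the 6 Ms4a genes (purple diamonds). Ms4a4d lies at 2.60 and 2.50, while the other 5 lie between -2.94 and -1.73 on both axes, in the range of the lowest macrophage markers.

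None of the remaining family genes was 1.5-fold apart in both replicates (background 1.15% lower and 1.47% higher). Of 14 other Ms4a genes with a row, 10 did not pass the filter on dim genes, which asked for at least 2 of 4 arrays above the floor, and 11 held exactly equal mutant-labelled and wild-type values in both replicates. The 4 that passed, Ms4a3, Ms4a8a, Ms4a10 and Ms4a15, were among those 11. Over the family genes tested, limma called 0 at an adjusted p under 0.05 and 0 at an unadjusted p under 0.05, against 3.96% of all genes at the unadjusted threshold. Ms4a1 read 3.98 to 4.09 on the 4 arrays and Ms4a2 4.09 and 4.21 in both groups, below the floor throughout. Ms4a4b, known from T cells, stayed at 3.18 to 3.69, and Ms4a4c, the remaining Ms4a4 gene, at 3.85 and 3.88. Ms4a14 was the exception among the dim genes, at 3.65 and 4.05 against 4.20 and 4.57, a difference of -0.55 and -0.53 in the direction of its neighbour Ms4a7 but below the floor on every array.

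Tmem176a and Tmem176b, which encode related membrane proteins outside the cluster, were bright. Tmem176a read 11.3 and 11.7 on the mutant-labelled arrays against 10.8 and 11.4 in wild type, a difference of 0.51 and 0.24 within the replicates. Tmem176b differed by 0.38 and 0.27. Neither passed limma (adjusted p = 1 for both), and both differences were under 1.5-fold.

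Ms4a4d lies between genes that differed in the other direction. By the order of genes in the RefSeq annotation of GRCm38.p6, used only for neighbourhood, the members span a stretch that runs Ms4a7, Ms4a4a, Ms4a4c, Ms4a4b, Ms4a6c, Ms4a6b, Ms4a4d and Ms4a6d, leaving out pseudogenes, a long noncoding RNA and the predicted gene Gm8369. The genes next to Ms4a4d in the family, Ms4a6b and Ms4a6d, were both lower. Ms4a4c and Ms4a4b, in the midst of the lower members, were below the floor. Of 21 neighbouring genes inside the cluster or among the 5 protein-coding genes on either side, 13 had a row and 6 were tested. Of these 6, 0 had an adjusted or unadjusted limma p under 0.05, and over the 13 with a row differences ran from -0.32 to 0.03. Mrpl16, which encodes a mitochondrial ribosome protein, had the lowest of these, at -0.37 and -0.28 within the replicates. With the replicate number as a block Mrpl16 alone among the 6 had an unadjusted limma p under 0.05, as did 13% of all tested genes, and 0 genes passed the adjusted threshold there.

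**Figure D3:**
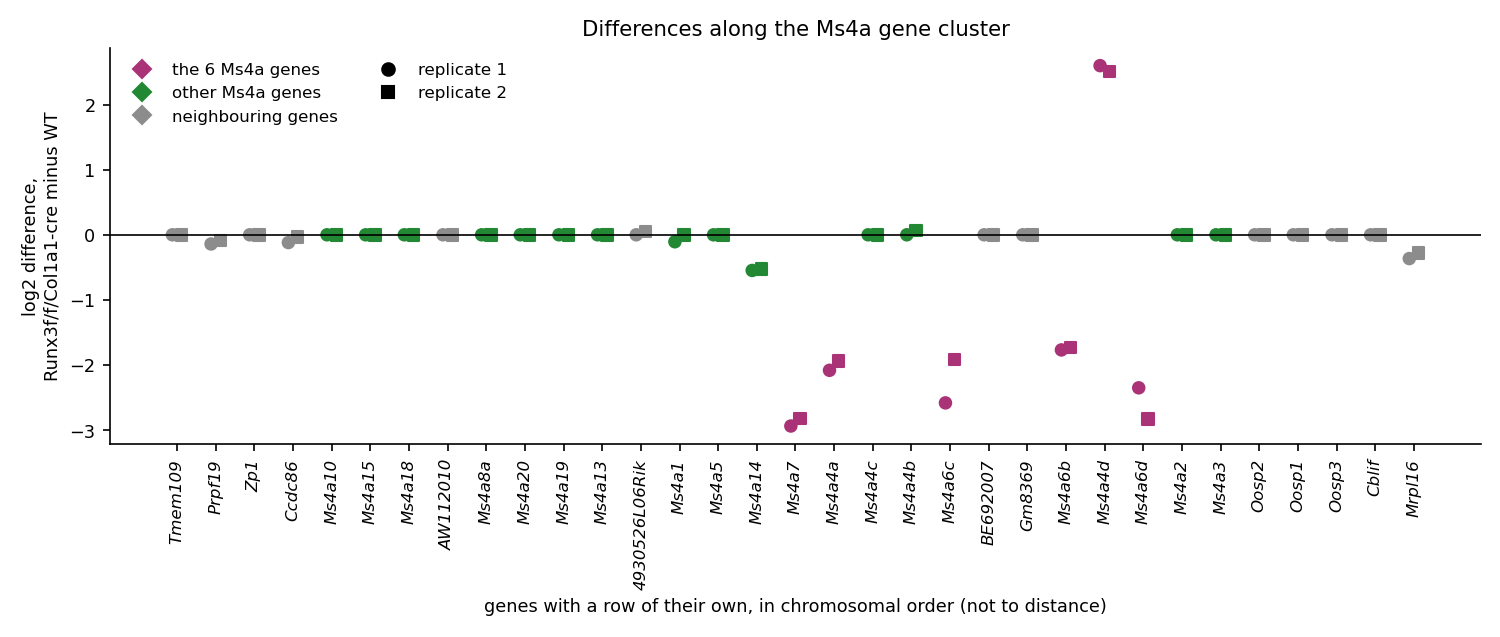
Log2 difference, mutant-labelled minus wild type, within replicate 1 (circles) and replicate 2 (squares) for genes of the Ms4a cluster and its flanks, in chromosomal order without regard to distance; purple marks the 6 Ms4a genes, green the other Ms4a genes and grey the neighbours. Differences beyond 1 log2 unit occur at the 6 genes, of which Ms4a4d is the one above 0, and most others sit exactly at 0.

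Macrophage markers were lower on the same arrays as the 5 lower members. Of 16 markers, all tested, 13 were at least 1.5-fold lower in both replicates and 0 were higher (background 1.15% and 1.47%), and 12 had an unadjusted limma p under 0.05 and were lower (1.9% of all genes, beside 2.06% higher), while 0 passed the adjusted threshold. The median difference was -1.57, against 0 over all genes tested. The list's mean log2 level was 6.63 and 6.99 on the mutant-labelled arrays and 8.21 and 8.40 in wild type. Vsig4, the partner of Ms4a6d named above, read 5.16 and 5.37 against 8.41 and 8.48 (difference -3.17, SE 0.14, limma adjusted p = 0.312). Mrc1, the mannose receptor, differed by -2.93 (SE 0.15, limma adjusted p = 0.312). Aif1 and Mertk held equal values in both replicates. The part of macrophage content in the differences of the Ms4a genes was not tested.

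Receptors and adaptors through which Ms4a proteins are known to act, and their macrophage companions, were lower in part. Of 12 genes 11 were tested, with a median of -0.96; 7 were at least 1.5-fold lower in both replicates and 0 higher (background 1.15% and 1.47%), and 6, all lower, had an unadjusted limma p under 0.05 (background 1.9%). Csf1r, also a macrophage marker here, and Itgam, also a monocyte marker, are among the 7. Tyrobp, the DAP12 adaptor, read 6.68 and 6.49 against 8.61 and 8.48, a difference of -1.96 (SE 0.14, limma adjusted p = 0.312). Fcer1g, the common Fc receptor gamma chain, differed by -2.12 (SE 0.24, limma adjusted p = 0.375). Trem2, a lipid-sensing receptor that in humans is linked to the MS4A4A and MS4A6A locus, read 6.74 and 7.30 against 8.56 and 8.72. Its difference was -1.62 (SE 0.25, limma adjusted p = 0.504). Clec7a, which encodes dectin-1, the receptor associated with Ms4a4a, differed by -0.01 and -0.36 within the replicates and was dim, at 4.83 to 5.19. Fcer1a, the IgE-binding chain that works with Ms4a2, was below the floor on all arrays.

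Of 9 transcription factors of myeloid cells tested, 0 were 1.5-fold apart in both replicates and the median was 0.07. With a background of 1.15% lower and 1.47% higher, a count of 0 of 9 says little. Cebpb alone had an unadjusted limma p under 0.05, as did 2.06% of all genes that were higher and 1.9% that were lower. Spi1, which encodes PU.1, differed by -0.69 within replicate 1 and -0.05 within replicate 2 (limma adjusted p = 1). Cebpb was higher by 0.37 and Maf by 0.22 (limma adjusted p = 1 for both); other cells also express these 2 genes.

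Among markers of other leukocytes and of osteoclasts, the B cell, T cell and mast cell lists had medians of 0. Of their tested genes, 0 of 4, 0 of 4 and 0 of 3 were 1.5-fold apart in both replicates (background 1.15% lower and 1.47% higher). Their mean log2 levels were 4.14 to 5.45 on the 4 arrays, near the floor. Osteoclast markers had a median of -0.02 over 8 genes, with Atp6v0d2, a proton pump subunit of osteoclasts that macrophages also express, at -1.24. Of 3 monocyte markers tested, 2 were at least 1.5-fold lower in both replicates (background 1.15%), with a list median of -0.85. Of the same 3, 0 had an unadjusted limma p under 0.05 (background 3.96%). Ly6c2 differed by -0.79 and -0.92 within the replicates and Itgam by -1.11 and -0.59, while Plac8 had the other sign, at 0.40 and 0.12. Itgam in replicate 2 barely reached the 1.5-fold cut, which is 0.585 in log2. Ly6c2 read 5.42 and 7.66 on the mutant-labelled arrays against 6.21 and 8.59 in wild type, so replicates differed more than groups. Ccr2 was below the floor with equal values.

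Genes at least 1.5-fold higher in both replicates, the direction of Ms4a4d, were found in 1 of the 12 lists, that of endothelial markers. Fibroblast and mesenchymal progenitor markers had a median of 0.11 over 5 genes, of which 0 were at least 1.5-fold higher in both replicates (background 1.47%). Among 5 endothelial markers, 2 were at least 1.5-fold higher in both replicates (background 1.47%). These were Cdh5, which encodes VE-cadherin, at 1.49 (SE 0.16, limma adjusted p = 0.336), and Emcn, endomucin, at 1.12 (SE 0.28, limma adjusted p = 0.891). Emcn read 5.15 and 5.26 on the mutant-labelled arrays against 3.76 and 4.42 in wild type. Its wild-type values lay below the floor of 4.71, so its fold and its place among the 2 are uncertain. The endothelial genes Kdr and Pecam1 were not higher, at 0 in both replicates for Kdr and -0.15 and 0 for Pecam1. Osteoblast genes had a median of -0.54 over 7, with 3 at least 1.5-fold lower in both replicates (background 1.15%). Ibsp and Dmp1 were the lowest, at -1.55 and -1.46. Col1a1 and Alpl differed by -0.01 and -0.03, and Sp7 had the other sign, at 0.29 and 0.08 within the replicates. Whether any of these cell types bears on Ms4a4d was not tested.

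**Figure D4:**
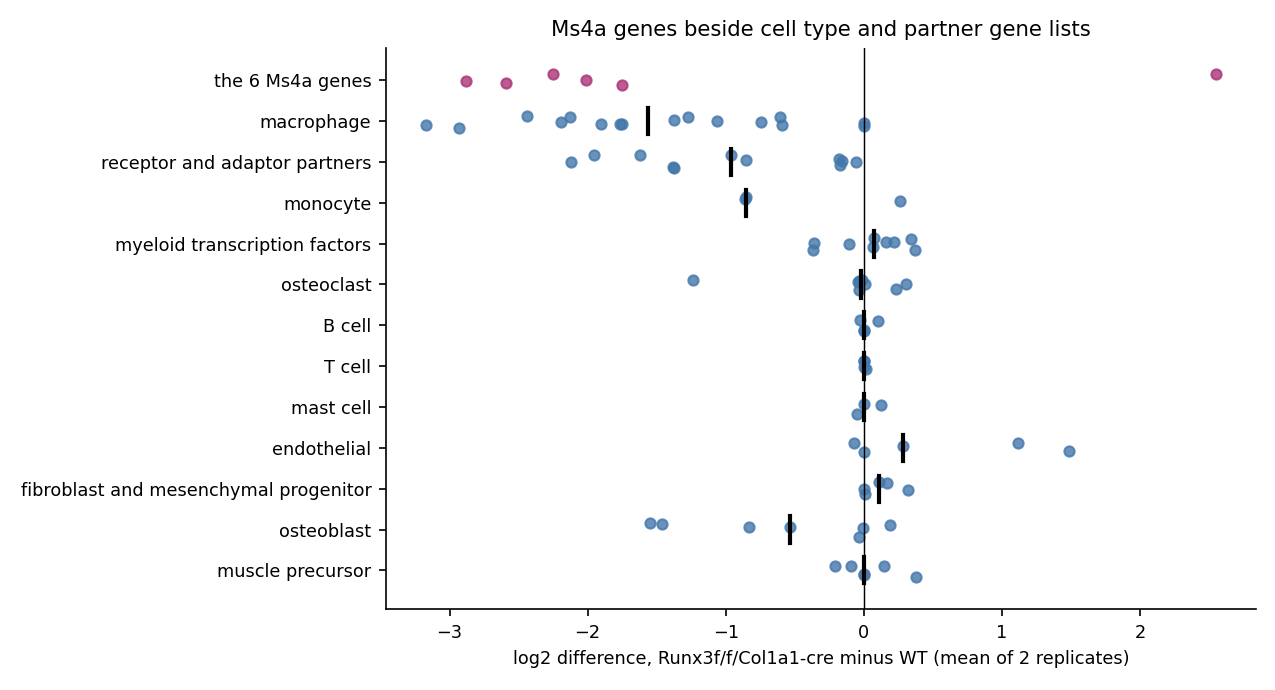
Log2 difference, mutant-labelled minus wild type, averaged over 2 replicates, for the 6 Ms4a genes (purple) and the tested genes of each list (blue); each point is a gene and the black bars are list medians. The 5 lower Ms4a genes lie with the lower macrophage and partner genes, Ms4a4d lies to the right of every gene of these lists, and B cell, T cell and mast cell genes lie near 0.

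The genes whose pattern over the 4 arrays came nearest to Ms4a4d were found by Euclidean distance between levels centred on each gene's mean, among 15621 named genes. They were Thsd4 (distance 0.31 log2 units), Eif2s3y (0.49), Crispld2 (0.49), Kdm5d (0.52) and Uty (0.60). Eif2s3y, Kdm5d and Uty lie on the Y chromosome. Thsd4, a matrix protein gene of fibrillin microfibrils, read 10.1 and 10.2 on the mutant-labelled arrays against 7.73 and 8.05 in wild type. Crispld2, a secreted protein gene, read 11.9 and 12.2 against 9.95 and 9.93. Ms4a4d differed by 2.60 and 2.50 within the replicates, and Eif2s3y by 2.66 and 1.90. The part of the sex of the cultures in the Ms4a4d difference was not tested.

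For the mean profile of the other 5 members the nearest genes were all known from macrophages. They were Cybb, the NADPH oxidase subunit of phagocytes (distance 0.28 log2 units), Fcer1g (0.35), Adgre1, which encodes F4/80 (0.35), Clec4n, which encodes dectin-2 (0.40), and the nucleotide receptor gene P2ry6 (0.43). Cybb read 6.40 and 7.08 against 8.58 and 9.02. Adgre1 differed by -2.60 and -2.28 within the replicates. Over 4 arrays that fall into 2 groups such likeness mostly restates the size of the difference.

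**Figure D5:**
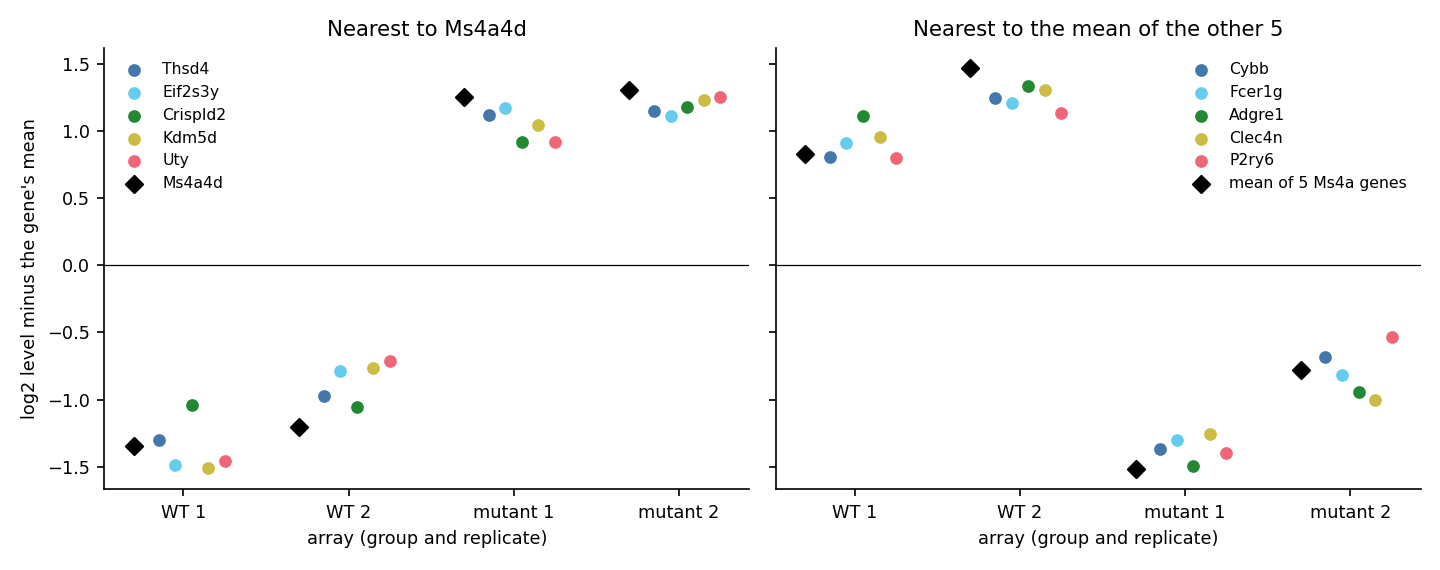
Log2 level minus the gene's own mean (y axis) on each of the 4 arrays (x axis) for Ms4a4d and its 5 nearest genes (left) and for the mean of the other 5 members and its 5 nearest genes (right); black diamonds are the Ms4a profiles and coloured points the nearest genes. On the left all points are above 0 on the mutant-labelled arrays, and on the right all are below 0 there.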

How the data were processed

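Levels were measured on 4 Affymetrix Mouse Gene 2.0 ST arrays from 200 ng of total RNA each. The deposited log2 values came with Partek and RMA named, without version, role or order, per the submitters' processing notes; the log base, the centring and which arrays were normalized together are not stated there. Values ran from 2.26 to 14.1 and folds assume base 2. Rows were named by the supplied platform annotation: 23521 of 41345 had 1 symbol, 1814 several and 16010 none listed. The row with the highest mean stood for a gene. Genes with at least 2 arrays above 4.71, the 90th percentile of mean levels over 1405 receptor rows, were tested (17841 of 22180).

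The groups were compared with limma 3.58.1 in R 4.3.3 (lmFit and eBayes on the 4 arrays with a group term alone, two-sided p, Benjamini-Hochberg over all genes tested). It called 0 genes at an adjusted p under 0.05 (smallest 0.312) and 707 at an unadjusted p under 0.05. The number of arrays limits the precision. The 6 genes, the lists and the tests were chosen with earlier results of these data known. Text names the members, other Ms4a and Tmem176 genes, locus neighbours, the 5 nearest genes per profile, and up to 4 genes per list by smallest p, besides genes named for a stated role or as a check. Promoters were aligned with Biopython 1.88 (global, affine gaps). Identity between the proteins was planned and is not analysed here. Alternatives covered the filter, normalization, row choice, variance trend, replicate block and single arrays left out.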

Additional observations from a re-analysis of the deposited data

How the results depend on the processing

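The 6 differences, on which the genes were chosen, kept their sign under all 60 combinations of gene and alternative tried. Part of these could not change them. The replicate block leaves the differences as they are, and row choice did too, since each gene had 1 row. Raising low values to the floor or to the receptor percentile altered Ms4a6b alone. The count of 60 is therefore no measure of how firm the differences are. With 1 array left out the ranges were -2.17 to -1.85 for Ms4a4a, 2.48 to 2.62 for Ms4a4d, -2.56 to -1.94 for Ms4a6c and -3.05 to -2.71 for Ms4a7. The mean difference of Ms4a6b became -1.29 with each value raised to the receptor percentile of its own array, an alternative added after the data were seen. The count of genes past the adjusted threshold stayed at 0 except with an intensity trend in the variance, which called 49; the cause was not tested. With the replicate block that count was also 0, the group differences were the same by construction, and 2319 genes (13% of those tested) had an unadjusted p under 0.05 in place of 707. Same-numbered arrays deviated together (r = 0.92 across genes, which are not independent), but the labels do not say what a number shares. Genes with equal values in both replicates, 25.7% of those tested, deviate identically and raise this r by construction. The count of other family genes at an unadjusted p under 0.05 was 0 in every alternative run, which says little, since 4 of the 6 tested genes hold equal values. Macrophage markers counted as lower were 12 to 13 of 16 under other filters, normalizations and row choices and 10 at 2-fold, a rule added after the data were seen. Genes 1.5-fold apart in both replicates numbered 449 to 486, against 469. Dim signal limits Ms4a6b and Ms4a4a on the mutant-labelled arrays.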

Other observations

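Equal values were commonest among dim genes. Mutant-labelled and wild-type arrays held exactly equal values in both replicates for 46.8% of the 5329 named genes with a mean level at or below the floor, for 34.7% of the 8710 between the floor and 8, and for 12.6% of the 8141 above 8. All 4 other Ms4a genes that passed the filter on dim genes, Ms4a3, Ms4a8a, Ms4a10 and Ms4a15, and 7 of the 10 that did not were equal in both. A difference of exactly 0 in these genes is therefore no measure of how little they differed. How the equal values arose is not known here.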
